A study of Rattus norvegicus with 12 samples.

Results

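The genes described here encode the mitochondrial respiratory chain and the ATP synthase of the rat. They were chosen by name: every array feature whose annotation gave a single symbol beginning with Nduf, Uqcr, Cox4 to Cox8 or Atp5, or equal to an Sdh subunit, Cyc1 or Cycs. The rule found 92 of the 18144 array features. Features that shared an accession were averaged into 46 clones, which stand for 42 gene symbols, among 12537 clones or unjoined features in all. All 46 clones had values in enough animals to be tested. They covered complex I with 15 clones of 14 genes and its assembly factors with 3 clones of 2 genes. Complex II had 1 clone, complex III 4, cytochrome c 1, complex IV 9 clones of 8 genes and the ATP synthase, complex V, 13 clones of 12 genes. The Cox4 form Cox4i2, the other complex II subunits, the inhibitor Atp5if1 and the subunits encoded in mitochondrial DNA were not analysed here.

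The arrays measured RNA from punches of a tissue that the labels name only NTS, taken from 6 rats called alcoholic and 6 called control, each with 1 array. The labels join the animals into 6 animal pairs, 1 alcoholic and 1 control animal in each. The punches of an animal came from slices of 250 um and were combined, and the RNA was amplified before labelling. The labels and design text do not state how or for how long ethanol was given, the strain, sex or age of the animals, or what made up the reference RNA hybridised on every array.

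The respiratory chain sits in the inner mitochondrial membrane. Complex I takes electrons from NADH and complex II from succinate, complex III passes them through cytochrome c to complex IV, which reduces oxygen, and complex V uses the proton gradient so formed to make ATP. Most brain ATP comes from this route, and the oxidation of ethanol to acetate adds to the NADH that feeds it. Effects of long ethanol intake on the subunits of these complexes are best known from liver mitochondria.

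Each value is a log2 ratio of the animal's RNA, in the red dye Cy5, over the reference, in the green dye Cy3. The deposited values carry no statement of their direction. The dyes make sample over reference likely, and if the ratio was formed in the opposite sense, all signs given here turn. Before centring, the arrays had medians from 0.35 to 1.85, and all values below are relative to the array's own median, so a level of 1 means a ratio to the reference that is 2-fold above that of the median feature. Within an array, the neighbouring spots of the members correlated with r from 0.887 to 0.988. Among the 1104 member values, 3.08% were exact zeros and were treated as missing, against 3.35% over all features. Neuron markers lay above the array median in 5 of 7 clones, against 5862 of 11852 over all clones. Eno2 was highest at 2.97, while Elavl3 at -1.09 and Uchl1 at -1.07 lay below. Markers of microglia lay above it in 5 of 6 clones, 3 of these at limma's adjusted p of at most 0.05, while C1qb was at -3.76. Those of astrocytes lay above it in 4 of 7, with Gja1 at -1.11, Mt3 at -0.98 and Vim at -0.89 below. Blood markers lay above it in 5 of 8 clones, from Alas2 at -1.85 to Hbb at 3.05. Of the noradrenergic markers, the transporter Slc6a2 stood at 1.87, Slc18a2 at 0.91 and Phox2a at -0.01. A symbol was taken as the annotation gave it and was not checked against a sequence, and in such bulk RNA fewer cells of a type and less RNA per cell cannot be told apart.

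No respiratory chain or ATP synthase gene was called different between alcoholic and control animals, against the spread of the differences within pairs. Of the 46 clones, 0 were called at an adjusted p of at most 0.05 in limma, with the pair of animals as a block. Among the 11852 clones tested, 0% were called, and the smallest adjusted p was 0.999. At an unadjusted p under 0.05 there were 0 members, against 281 clones, or 2.37%, over the whole array. The member with the smallest unadjusted p in limma was the complex I assembly factor Ndufaf4, at 0.0676.

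The differences, alcoholic minus control, were small and evenly split. Positive values were found for 22 members and negative ones for 24, so 47.8% were positive, against 51.7% positive and 48.2% negative over all clones. Their median was -0.003 on the log2 scale, with a range from -0.73 to 0.87, and the median of all clones was 0.01. The median size of a difference was 0.06 for the members and 0.10 for all clones, with median standard errors of 0.15 and 0.16. No member had groups that did not overlap, and none of the 44 members with values in at least 5 pairs went one way in all of its pairs. Over the array, 0.0169% of clones had groups that did not overlap and 1.71% kept their sign in all pairs.

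Most of these differences had intervals within 2-fold, without adjustment for the number of clones. The 95% interval lay within 2-fold in either direction for 41 of the 46 members and within 1.5-fold for 34. Over all clones, 10224 and 7805 of 11852 did so. The 5 members with wider intervals were Ndufa7, Ndufaf3 clone 1, Atp5f1a, Atp5f1b clone 2 and Atp5po, each of which varied widely between arrays or was measured in few pairs. For them the interval did not exclude a change of 2-fold. Power to call a change of that size was not tested for any member.

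**Figure D1:**
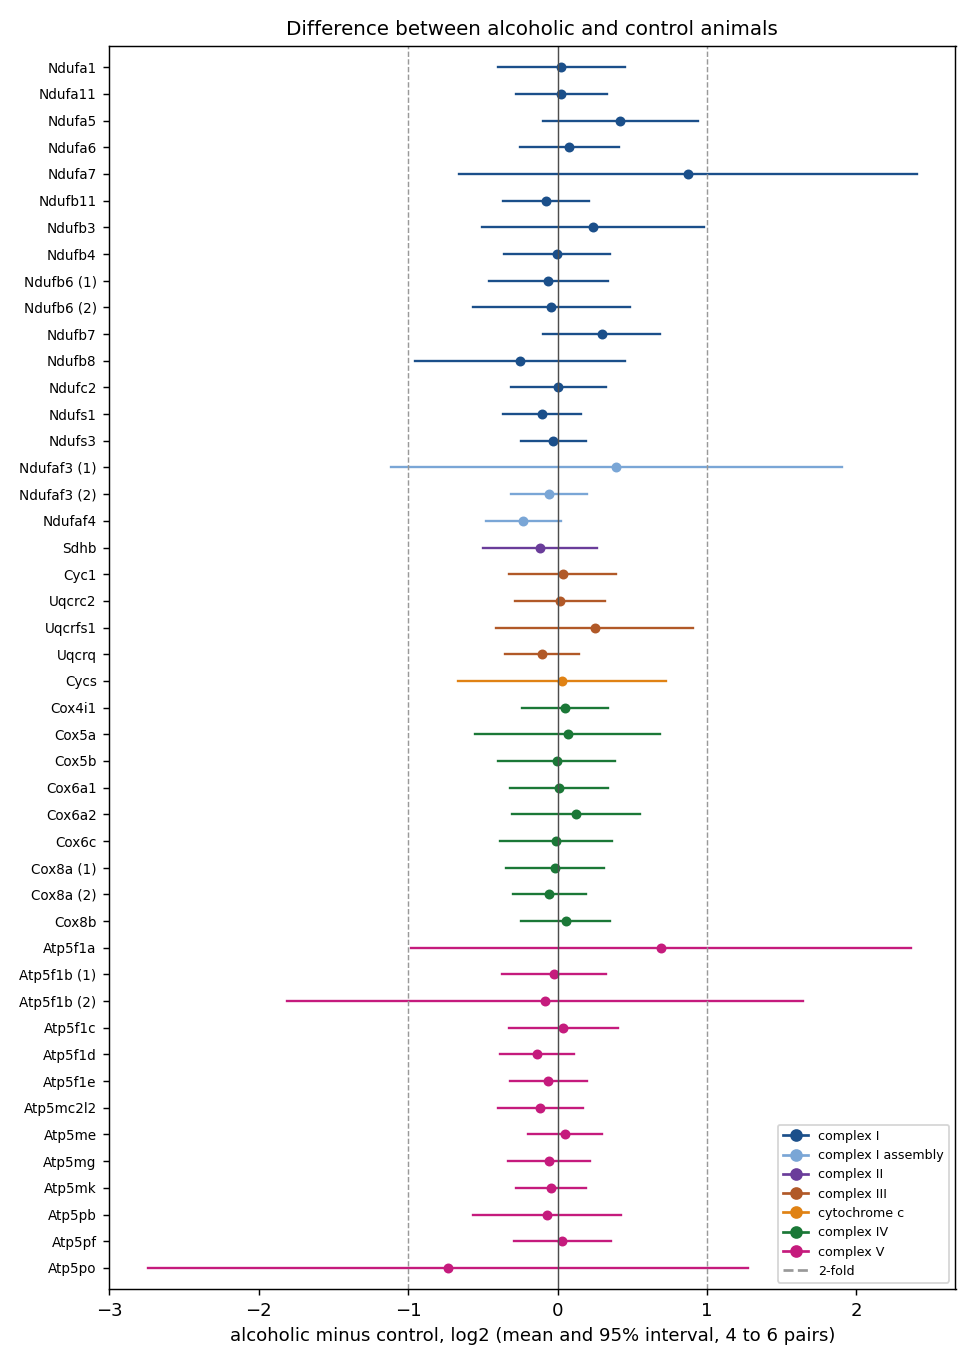
The difference alcoholic minus control on the log2 scale for each of the 46 clones, as the mean with its 95% interval over the 4 to 6 animal pairs that measured it, coloured by complex. All 46 intervals include 0, and 41 lie between the dashed lines that mark 2-fold.

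In complex I, the entry point for electrons from NADH, 8 of 15 clones had a positive difference and 7 a negative one, and the median difference was 0.005. Ndufa5, an accessory subunit of the arm that reaches into the matrix, ranged from 1.82 to 3.23 with a median of 2.31 in alcoholic animals and from 1.14 to 2.65 with a median of 1.91 in controls. The ranges overlapped over most of their length, and 4 of 6 pairs were higher in the alcoholic animal. The difference was 0.42 ± 0.22 (SE, n = 6 pairs), with an interval from -0.10 to 0.94. It was 0.86 with exact zeros kept, 0.084 from a single feature and 0.22 without pair 4. Ndufb7, an accessory subunit of the membrane arm, ranged from -1.26 to -0.55 with a median of -0.77 in alcoholic animals and from -1.71 to -0.69 with a median of -1.02 in controls. Here too the groups overlapped, and 4 of 6 pairs were higher. Its difference was 0.30 ± 0.17 (SE, n = 6 pairs), and limma's unadjusted p was 0.118.

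Ndufa7 had the largest positive difference of all members, but with exact zeros kept as values it turned to -0.25. It was measured in both animals of only 4 pairs, 2 higher and 2 lower. Alcoholic values ran from 1.67 to 4.44 with a median of 3.25, and control values from 1.54 to 3.34 with a median of 2.41. The control range lay almost wholly inside the alcoholic one. The difference was 0.87 ± 0.61 (SE, n = 4 pairs), with an interval from -0.66 to 2.41.

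Ndufb8, a membrane arm subunit whose protein is often used as a marker of assembled complex I, had the lowest difference among the subunits of the complex, at -0.25 ± 0.30 (SE, n = 6 pairs), with 3 pairs in each direction. Its values ran from -1.53 to -0.18 with a median of -1.40 in alcoholic animals and from -1.54 to 0.34 with a median of -0.84 in controls. The lowest values of the groups were nearly the same. Ndufs1, the core subunit that carries several of the iron-sulfur clusters, was lower in 5 of 6 pairs by a small amount. It ranged from -0.79 to -0.01 in alcoholic animals, with a median of -0.49, and from -0.70 to 0.14 in controls, with a median of -0.38. The difference was -0.10 ± 0.11 (SE, n = 6 pairs).

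The other named complex I subunits were near 0. Ndufa11, of the membrane arm, differed by 0.02 ± 0.13, and the clones of Ndufb6, also of the membrane arm, by -0.06 ± 0.17 and -0.04 ± 0.23 (SE, n = 6 pairs). Ndufa1, Ndufa6, Ndufb3, Ndufb4, Ndufb11, Ndufc2 and the core subunit Ndufs3 had differences from -0.08 to 0.24.

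The assembly factors Ndufaf3 and Ndufaf4 help to build complex I and are not part of the finished enzyme. Ndufaf4 was lower in the alcoholic animal of 5 of 6 pairs. Its values ran from -1.43 to 0.08 with a median of -0.98 in alcoholic animals and from -1.22 to 0.30 with a median of -0.76 in controls. The groups overlapped over most of their range, and the pairs lay farther apart than the animals within a pair. The difference was -0.23 ± 0.11 (SE, n = 6 pairs), with an interval from -0.48 to 0.02. Clone 2 of Ndufaf3 differed by -0.06 ± 0.11 (SE, n = 6 pairs), and clone 1 by 0.39 ± 0.60 (SE, n = 4 pairs). The spots of clone 1 disagreed with each other, with a median gap of 2.15 on the log2 scale, against gaps from 0.12 to 0.20 that were the array medians over all members.

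Complex II, the succinate dehydrogenase, was read from its iron-sulfur subunit Sdhb alone. Sdhb ranged from -0.81 to -0.13 with a median of -0.46 in alcoholic animals and from -0.79 to 0.03 with a median of -0.25 in controls. The ranges nearly coincided. The difference was -0.12 ± 0.16 (SE, n = 6 pairs), and 4 of 6 pairs were lower.

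In complex III, 3 of 4 differences were positive, and the median was 0.03. The Rieske iron-sulfur protein Uqcrfs1 ranged from -2.50 to 0.53 with a median of -1.0 in alcoholic animals and from -2.63 to 0.60 with a median of -1.43 in controls. Both groups covered a range of about 3 on the log2 scale. The difference was 0.25 ± 0.28 (SE, n = 6 pairs), higher in 4 of 6 pairs. The small subunit Uqcrq was lower in 4 of 6 pairs, by -0.11 ± 0.11 (SE, n = 6 pairs). Cytochrome c1, Cyc1, differed by 0.04 ± 0.15 and the core protein Uqcrc2 by 0.02 ± 0.13. Cytochrome c itself, Cycs, which carries electrons on to complex IV and also acts in cell death, ran from 0.18 to 2.00 with a median of 1.14 in alcoholic animals and from 0.19 to 1.63 with a median of 1.22 in controls. Nearly the same range was covered by both groups, and the difference was 0.03 ± 0.30 (SE, n = 6 pairs).

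Complex IV, the cytochrome c oxidase, had the smallest spread of mean differences of the complexes with several genes. The 9 clones lay between -0.06 and 0.12, 5 positive and 4 negative, and their median was 0.01. Cox4i1, the widely expressed Cox4 form, ranged from -0.72 to -0.27 with a median of -0.62 in alcoholic animals and from -0.90 to -0.12 with a median of -0.68 in controls. All alcoholic values fell inside the control range, and the difference was 0.05 ± 0.12 (SE, n = 6 pairs). Cox6c differed by -0.01 ± 0.16, the clones of Cox8a by -0.02 ± 0.14 and -0.06 ± 0.10, Cox8b by 0.05 ± 0.13 and Cox6a2 by 0.12 ± 0.18 (SE, n = 6 pairs). Clone 2 of Cox8a was lower in 5 of 6 pairs. Cox5a, Cox5b and Cox6a1 had differences from -0.004 to 0.07.

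In complex V, 4 of 13 clones had positive and 9 had negative differences, and the median was -0.06. The catalytic head is made of the alpha and beta subunits, encoded by Atp5f1a and Atp5f1b, around the central stalk of gamma, delta and epsilon. Atp5f1a ran from 1.06 to 5.34 with a median of 3.20 in alcoholic animals and from 0.45 to 3.54 with a median of 2.35 in controls. It was higher in 4 of 5 pairs, but the ranges overlapped and the difference of 0.69 ± 0.70 (SE, n = 5 pairs) had an interval from -0.98 to 2.37. Leaving out pair 1 gave 1.49 and leaving out pair 2 gave 0.21, and a single feature gave 1.11. The spots of Atp5f1a had a median gap of 1.06 on the log2 scale, against array medians from 0.12 to 0.20 over all members. Clone 1 of Atp5f1b differed by -0.02 ± 0.15 and clone 2 by -0.09 ± 0.74 (SE, n = 6 pairs). Atp5f1d, the delta subunit of the central stalk, was lower in 5 of 6 pairs. Its alcoholic values ran from -0.73 to -0.01 with a median of -0.44 and its control values from -0.36 to 0.02 with a median of -0.30. The control values were packed more closely, and the ranges overlapped over most of the control range. The difference was -0.14 ± 0.11 (SE, n = 6 pairs), with an interval from -0.38 to 0.11. The gamma subunit Atp5f1c differed by 0.04 ± 0.16.

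The most negative member was Atp5po, which encodes the peripheral stalk subunit at the top of the head, at -0.73 ± 0.86 (SE, n = 6 pairs). Alcoholic values ran from 0.53 to 2.55 with a median of 0.62 and control values from 0.53 to 6.17 with a median of 0.69. The medians were close, and a single control array, that of pair 6 with only 1 spot measured, set the sign. Without pair 6 the difference was 0.25. The membrane subunit Atp5me differed by 0.05 ± 0.11 and Atp5mc2l2, a copy related to the genes of the proton-carrying c ring, by -0.12 ± 0.12 (SE, n = 6 pairs). Whether that clone also binds RNA of the parent genes was not tested. Atp5f1e, Atp5pb, Atp5pf, Atp5mg and Atp5mk had differences from -0.07 to 0.03.

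Against the common reference the members did stand apart from each other. The comparison asks which members are rich or poor in NTS punches relative to the reference RNA, and it rests on 1 dye orientation, so a dye effect and a sample effect cannot be told apart. Of the 46 clones, 28 lay above the array median ratio and 14 below it at an adjusted p of at most 0.05 in limma over the pair means, which is 60.9% and 30.4%. Over all 11852 clones, 41.4% were called above and 42.4% below, 83.8% in all, so a call in itself said little about the members. The median level of the members was 0.67, against -0.02 for all clones and -0.04 for clones with a single symbol. Their levels ran from -3.19 for Cox6a2 to 3.16 for clone 1 of Ndufaf3. That top value fell to 1.41 when exact zeros were kept as values, under the 2.59 of Cox6c in the same fit. Of the 44 members measured in at least 5 pairs, 35 kept their sign in all pairs, against 78.3% over the array. Without centring, 35 members were called above and 3 below, against 61.3% of all clones above, and the 3 were Ndufa11, Cox6a2 and clone 1 of Atp5f1b. The other calls below are therefore relative to the array median. A level here is a ratio to the reference and does not rank the abundance of the genes.

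**Figure D2:**
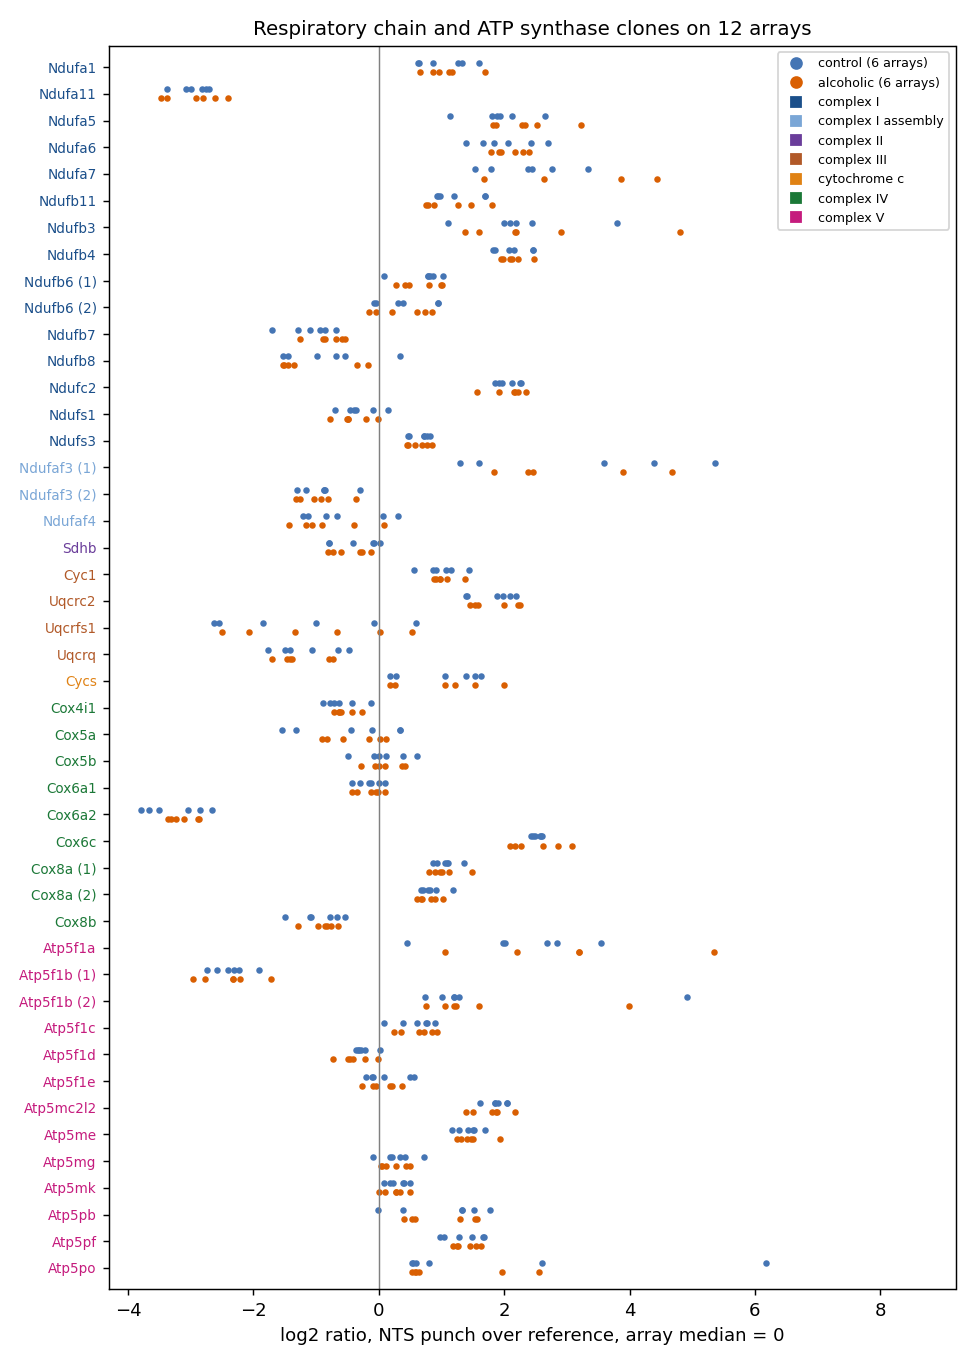
Centred log2 ratio of NTS punch over reference for each of the 46 clones on the 12 arrays, blue for control and orange for alcoholic animals, with gene names coloured by complex. Cox6a2 and Ndufa11 lie near -3 on every array and Cox6c near 2.5, while Uqcrfs1, Atp5f1a and clone 1 of Ndufaf3 are spread over several units.

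The accessory subunits of complex I were mostly above the array median ratio. Over 13 clones their median was 1.20, with 10 called above and 3 below in limma. Ndufa7 stood at 2.72 ± 0.20 (SE, n = 4 pairs) and Ndufa5 at 2.13 ± 0.15 (SE, n = 6 pairs), which for Ndufa5 is 4.39-fold above the median ratio. The 3 accessory subunits below were Ndufb7 at -0.95 ± 0.10, Ndufb8 at -0.94 ± 0.17 and Ndufa11 at -2.94 ± 0.12 (SE, n = 6 pairs), the last 7.70-fold under the median ratio. Ndufb6 was above with both of its clones, at 0.69 ± 0.11 and 0.39 ± 0.12. Ndufa1, Ndufa6, Ndufb3, Ndufb4, Ndufb11 and Ndufc2 were called above as well, with levels from 1.06 to 2.39. The core subunits took both directions, with Ndufs1 at -0.36 ± 0.11 and Ndufs3 above.

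Sdhb of complex II was below at -0.42 ± 0.11 (SE, n = 6 pairs). In complex III the membrane and core proteins Cyc1 and Uqcrc2 were above, at 1.02 ± 0.09 and 1.83 ± 0.13, and Uqcrfs1 and Uqcrq were below, at -1.13 ± 0.39 and -1.20 ± 0.16. The call for Uqcrfs1 was lost without pair 1, 2 or 3, with levels of -0.85, -0.88 and -1.03 and limma's adjusted p of 0.0604, 0.0634 and 0.0582. Cycs was above at 1.03 ± 0.18.

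Complex IV was evenly split, with 3 clones called above, 3 below and 3 not called, and a median of -0.15. Its subunits include forms made in most tissues and forms made mainly in heart and skeletal muscle. Cox6a2, the muscle form, had the lowest level of all members, ranging from -3.37 to -2.87 with a median of -3.17 in alcoholic animals and from -3.79 to -2.66 with a median of -3.27 in controls. All 12 values lay far under the array median, and the mean of -3.19 ± 0.11 (SE, n = 6 pairs) is 9.12-fold under the median ratio. Cox6a1, the widely expressed form, was at -0.15 ± 0.08 and was not called. Of the Cox8 forms, the muscle form Cox8b was below the median ratio at -0.92 ± 0.11, and the clones of the widely expressed form Cox8a were above it at 1.06 ± 0.08 and 0.82 ± 0.09 (SE, n = 6 pairs). Of the muscle markers, 3 were measured, with a median level of -0.12. Myoglobin, Mb, was called above the median ratio at 0.85, while the troponins Tnni3 at -0.43 and Tnnt2 at -0.12 were not called. Cox6c, with no muscle form, was highest in the complex at 2.52 ± 0.10, or 5.73-fold above the median ratio, and Cox4i1 was below at -0.57 ± 0.10.

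Complex V was mostly above, with 10 clones called above and 2 below, and a median of 1.02. All 3 peripheral stalk genes were above, from 1.02 to 1.51, and all 3 genes of the membrane part, with Atp5me highest at 1.45 ± 0.10. The copy Atp5mc2l2 stood at 1.83 ± 0.10 (SE, n = 6 pairs). The 6 clones of the head and central stalk took both directions, from Atp5f1a at 2.65 ± 0.34 (SE, n = 5 pairs) and Atp5f1c at 0.61 ± 0.10 to Atp5f1d at -0.32 ± 0.09 and clone 1 of Atp5f1b at -2.37 ± 0.13. The 4 members not called against the reference were Cox5a, Cox5b, Cox6a1 and Atp5f1e, which are named because of their number after their values were seen. Their levels ran from -0.42 to 0.09.

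Of 4 genes with a second clone, 2 had clones with like levels and 2 had clones far apart in level. The clones of Ndufb6 were 0.30 apart in their level and those of Cox8a 0.24 apart. The clones of Ndufaf3 were 4.08 apart, with clone 1 at 3.16 ± 0.48 (SE, n = 4 pairs) and clone 2 at -0.92 ± 0.13 (SE, n = 6 pairs). The clones of Atp5f1b, which encodes the catalytic beta subunit, were 4.05 apart, with clone 2 at 1.68 ± 0.28 against -2.37 for clone 1. For these 2 genes the direction against the array median ratio therefore depended on the clone, and no level is given for the gene. Likeness in level did not carry over to the differences: the clones of Cox8a had the same sign in 2 of 6 pairs and those of Ndufb6 in 4 of 6, while those of Ndufaf3 did so in 4 of 4 and those of Atp5f1b in 3 of 6.

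Within single pairs the median of all members stayed near 0, while that of complex IV took larger values in both directions. The median difference of all members was 0.05, -0.03, -0.13, -0.06, 0.03 and 0.04 in pairs 1 to 6. The median of complex IV was 0.42, 0.01, -0.45, -0.03, -0.11 and 0.19 in the same pairs. In pair 3, 8 of the 9 complex IV clones were lower in the alcoholic animal, while 50.8% of all clones were higher, and in pair 6, 8 of 9 were higher, against 43.6% of all clones. The pair medians of complex IV had a standard deviation of 0.29, against 0.18 for the 4 clones of complex III, 0.12 for complex I and 0.08 for complex V. The medians of complex III ran from -0.18 in pair 6 to 0.33 in pair 3, where complex IV was lowest. Whether these spreads differ was not tested, and a median over fewer clones varies more. For complex IV, opposite directions in different pairs left a mean near 0. Across the 43 members complete on all arrays, the differences of any 2 pairs had rank correlations from -0.46 to 0.24, and these are across clones, which are not independent replicates.

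The complex IV clones also varied together over the 12 arrays once group means were removed. The median correlation between clones of different genes among its 9 was 0.43. It was 0.02 over a regular sample of the 11017 complete clones, 0.03 for complex I, 0.01 for complex V and -0.25 for the 4 clones of complex III. These correlations describe the arrays, share array and centring, and were not tested. The complex IV level tended to rise with the array median before centring, which entered both measures through the centring. This relation was not among the planned comparisons. Each adjustment below covers 1 statistic over 5 sets of members and not the several statistics that were run. Over 12 arrays Pearson's r was 0.71 (permutation p = 0.0102, and 0.051 after Benjamini-Hochberg adjustment over 5 relations), and Spearman's rho was 0.65 (permutation p = 0.0258, adjusted 0.101), so neither passed the correction. These permutations exchanged all 12 arrays freely, so their p makes no allowance for the pairs or the groups. Without the control arrays of pairs 5 and 6, which were farthest from the middle, r was 0.56. Within groups, r was 0.33 in alcoholic (exact permutation p = 0.489) and 0.84 in control animals (exact permutation p = 0.0556). For single clones, 18.6% of the members and 5.54% of all clones had r of at least 0.5 with the array median, among them 3 of 9 in complex IV, and Cox4i1 had a negative r of -0.23. The differences within pairs tended the same way: over the 6 pairs, the complex IV median difference and the difference of the array medians before centring had r = 0.90 (exact permutation p = 0.0111, and 0.0556 after Benjamini-Hochberg adjustment over 5 relations). Spearman's rho was 0.89 (exact permutation p = 0.0333, adjusted 0.167), so neither passed the correction. Without pairs 3 and 5, farthest from the middle, r over the other 4 pairs was 0.81. Complex IV was not alone in such values. Over the same 4 pairs r was 0.88 for all members, 0.84 for complex V, 0.16 for complex I and -0.92 for complex III. Over all 6 pairs it was 0.62 for all members, -0.65 for complex III, -0.03 for complex I and -0.02 for complex V. Over 12 arrays, rho for complex I was 0.61 (permutation p = 0.0404, adjusted 0.101).

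**Figure D3:**
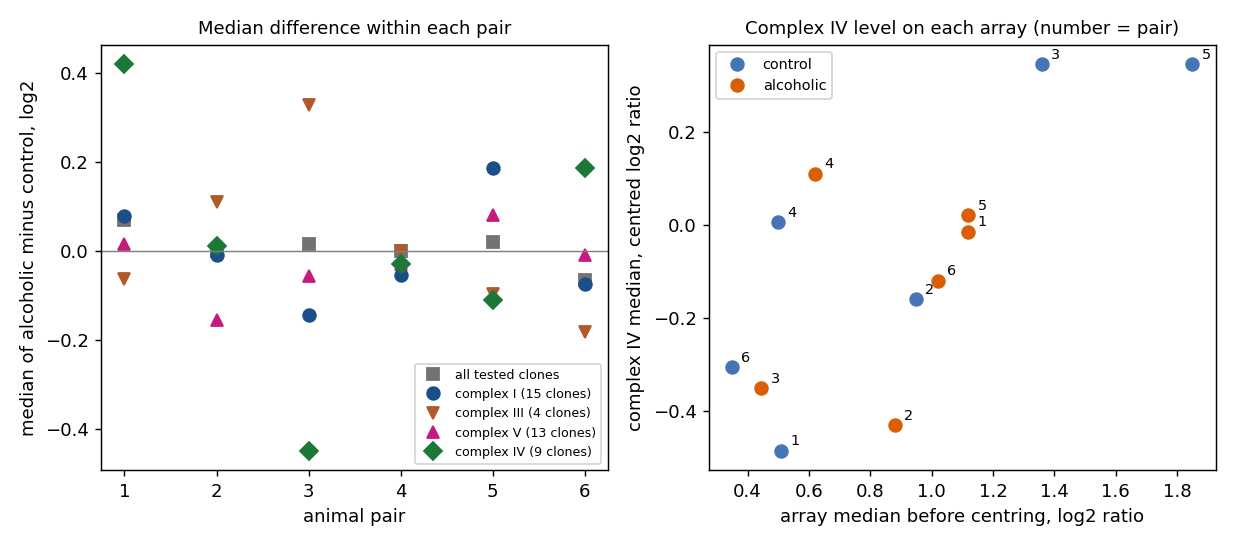
Left, the median difference alcoholic minus control on the log2 scale within each animal pair for all clones and for complexes I, III, IV and V. Right, the median centred log2 ratio of the 9 complex IV clones on each array against the array's median before centring, numbered by pair; complex IV runs from 0.42 in pair 1 to -0.45 in pair 3.

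Some members were alike in the animals of a pair and far apart between pairs. The following were picked after their values were seen, and their likeness within pairs is given without a test. Uqcrfs1 had pair means of -2.53, -2.35, -1.59, 0.31, -0.37 and -0.24 in pairs 1 to 6. In pairs 1 to 3 both animals lay at -1.34 or lower and in pairs 4 and 5 both lay at -0.67 or higher, while pair 6 had 0.53 in the alcoholic and -1.0 in the control animal. Ndufaf4 had pair means of -0.17, 0.19, -0.79, -1.0, -1.32 and -1.10, highest in pairs 1 and 2 in both animals. Uqcrq, a small subunit of the same complex as Uqcrfs1, was also highest in pairs 1 and 2, where Uqcrfs1 was lowest. The intraclass coefficient was 0.96 for Ndufaf4, 0.94 for Uqcrq and 0.795 for Uqcrfs1. It is 1 when the difference within a pair is the same in every pair, so it ignores a constant offset between the groups. Among the 43 complete members 9.30% reached 0.8, a share close to the 7.47% of all clones, with medians of 0.44 and 0.32. What the animals of a pair shared, such as litter or day, is not stated in the labels.

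**Figure D4:**
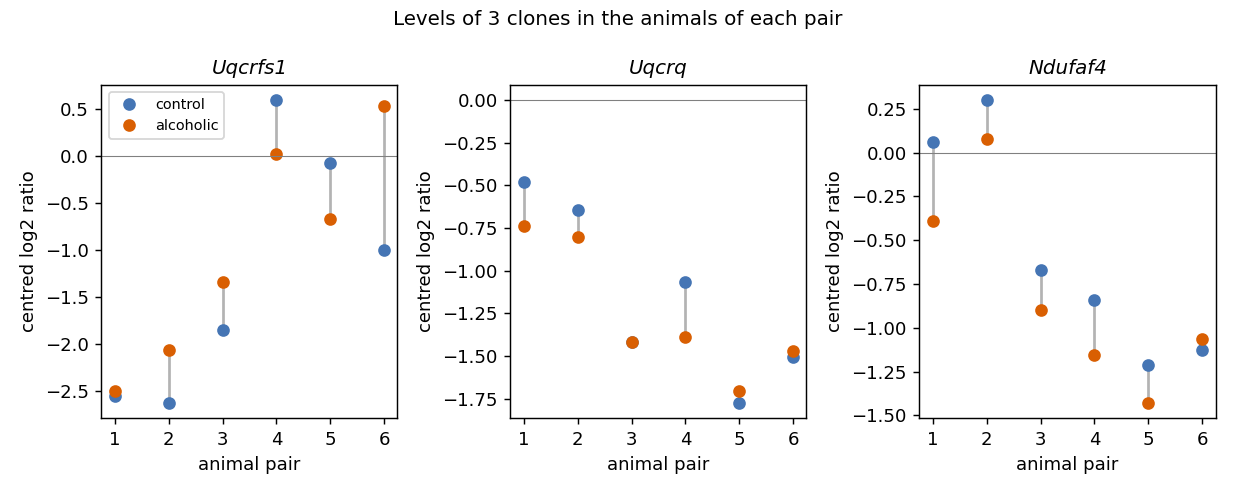
Centred log2 ratio of Uqcrfs1, Uqcrq and Ndufaf4 in the control (blue) and alcoholic (orange) animal of each pair, joined by a line. For Uqcrq and Ndufaf4 the lines are short against the distance between pairs, and both genes are highest in pairs 1 and 2.

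Other mitochondrial genes were grouped into 5 lists, in which limma called 0 clones, as over the whole array. Assembly and copper delivery factors had 5 positive and 7 negative differences over 12 clones, and the median was -0.03. Electron entry enzymes, carriers and uncoupling proteins had 3 of 7 higher and a median of -0.05, and regulators of mitochondrial genes, among them the mitochondrial transcription factor Tfam at -0.02 ± 0.17, had 4 of 7 higher and a median of 0.02. The tricarboxylic acid cycle, which supplies NADH and succinate, had 5 of 9 higher and a median of 0.04. Of 40 clones for import and the mitochondrial ribosome, 15 had positive and 24 had negative differences, and the median was -0.01. In that list Tomm40, the pore of the outer membrane, was lower in 6 of 6 pairs by -0.26 ± 0.10, and Timm44, of the import motor, was higher in 5 of 6 by 0.46 ± 0.15 (SE, n = 6 pairs). They were the only clones of these lists and of the cell type lists with an unadjusted p under 0.05 in limma, at 0.0382 and 0.0159, and their adjusted p was 0.999.

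The lists for other cell types also had 0 clones called. All 7 astrocyte clones were higher in alcoholic animals, with a median difference of 0.22. All 6 endothelial clones, of 5 genes, were lower, with a median of -0.08. Over all clones, 51.7% of differences were positive. The smallest unadjusted p in limma was 0.198 among the astrocyte clones and 0.279 among the endothelial ones. Shorter lists also went one way: 3 noradrenergic and cholinergic clones were higher, and 2 choroid plexus and 3 muscle clones were lower. The median astrocyte level on an array ran from 0.55 to 1.92 in alcoholic and from 0.55 to 1.94 in control animals. Its part in the differences of the members was not tested.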

How the data were processed

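RNA of 12 rats was measured on 12 arrays with 2 colours, the animal's RNA in Cy5 and a reference in Cy3, per the labels. The deposited values were log2 ratios per array feature. The log base was read from their size, up to 13.92, and the direction was taken from the dyes. Background correction, filters and normalization by the authors are not given in the sources used here. Signals over background and single-channel intensities were not used here, and the number of arrays limits the precision.

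The members and all gene lists were chosen with earlier results of these data known. Features were named through GEO's platform annotation, which can be old: 10118 had 1 symbol, 1092 several and 6934 none. Exact zeros were set to missing, the median of each array was subtracted, and features sharing an accession and symbol were averaged. Limma 3.58.1 in R 4.3.3 (lmFit, eBayes) tested the group difference with the pair as a fixed effect (block). It also tested the mean of the pair means against 0. Both tests ran over the 11852 clones with both values in at least 4 pairs, with Benjamini-Hochberg adjustment over all of them, a threshold of 0.05 and intervals at 95%. The 6 animals per group are the replicates. Both fits were tested on simulated data.

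The labels state the pairs. Deviations of paired arrays from their group means correlated with a mean r of 0.23, against -0.05 for arrays of different pairs, and for 3 of 6 alcoholic arrays the closest control array was that of the same pair. An exchange of arrays between pairs was not tested for. Named with values were, per complex, the 3 clones with the smallest unadjusted p in each direction and the highest and lowest levels, the genes with at least 2 clones, and Cox4i1, Cycs, Ndufa5 and Atp5f1d. This gave 31 clones of 27 genes, and the other 15 members are given by range unless stated. Alternatives were no pair block, zeros kept, no centring, quantile normalization, single features, averages per symbol, complete pairs only, a trended robust prior, control arrays only and each pair left out.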

Additional observations from a re-analysis of the deposited data

Results flagged for a closer look

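In 4 of 92 groups of 4 to 6 measured arrays, 1 array lay far from the others. This was measured as its gap to the nearest value over the range of the group, and chance gives about 1 in 20 groups. The control array of pair 6 read 0.075 for clone 1 of Ndufb6, where the other controls lay from 0.78 to 1.02, and its spots read -0.04 and 0.19. The alcoholic array of pair 2 read 3.99 for clone 2 of Atp5f1b, with the others from 0.76 to 1.61, but its spots were far apart, at 5.64 and 2.33. For the same clone the control array of pair 5 read 4.91, with the others from 0.74 to 1.28 and spots at 4.45 and 5.37. The control array of pair 6 read 6.17 for Atp5po, from 1 measured spot, with the others from 0.53 to 2.61.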

How the results depend on the processing

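Under every alternative run, 0 members were called between alcoholic and control animals, at most 2 had an unadjusted p under 0.05, and the smallest adjusted p of a member in limma was 0.949. Without the pairing as a block, 0 clones were called and the median difference of the members was -0.007. With no centring limma called 2 clones over the whole array, neither of them a member, 2539 clones and 3 members were called below the reference, and the median level of the members was 1.56. Their pair medians were then 0.66, -0.10, -1.04, 0.06, -0.71 and 0.71, and with quantile normalization -0.11, -0.26 and 0.15 in pairs 2, 3 and 6. Of the 31 named clones, 9 kept the sign of their difference in all fits. Signs turned with no pair block for Ndufaf3 clone 1 (-0.20), with zeros kept for Ndufa7 (-0.25) and Atp5po (0.052), and with quantile normalization for Uqcrc2 (-0.035) and Atp5f1c (-0.00016). With no centring they turned for Ndufa11 (-0.029), Ndufaf3 clone 1 (-0.0063), Cyc1 (-0.018), Uqcrc2 (-0.036), Cycs (-0.022), Cox4i1 (-0.0033), Atp5f1c (-0.016) and Atp5me (-0.0025), and so did the levels of Ndufs1 (0.53), Ndufaf4 (0.20), Sdhb (0.48), Cox4i1 (0.32) and Atp5f1d (0.58). With single features, only the first tested feature of each named clone was read. In that fit 20 of 30 named differences moved by over 1.5 times or changed sign. The signs turned for Ndufb6 clone 2 (0.034), Ndufaf3 clone 2 (0.011), Atp5f1b clone 1 (0.074) and Atp5f1b clone 2 (0.25). Averages per symbol turned the difference (0.37) and level (0.44) of Ndufaf3 clone 2 and the level of Atp5f1b clone 2 (-0.35). Leaving out each pair gave 25 to 27 members above and 13 to 15 below, with no level changing sign. Differences that changed sign then ran from -0.11 to 0.068 for Atp5f1b clone 1, -0.75 to 0.63 for Atp5f1b clone 2, -0.066 to 0.13 for Atp5f1c, -1.27 to 0.25 for Atp5po, -0.011 to 0.12 for Cox4i1, -0.037 to 0.24 for Cox6a2, -0.11 to 0.066 for Cox6c, -0.10 to 0.091 for Cox8a clone 1, -0.041 to 0.10 for Cox8b, -0.062 to 0.15 for Cyc1, -0.15 to 0.33 for Cycs, -0.049 to 0.088 for Ndufa11, -0.096 to 0.006 for Ndufaf3 clone 2, -0.16 to 0.076 for Ndufb6 clone 1, -0.18 to 0.17 for Ndufb6 clone 2, -0.43 to 0.037 for Ndufb8, -0.24 to 0.005 for Sdhb, -0.051 to 0.10 for Uqcrc2 and -0.008 to 0.42 for Uqcrfs1. With control arrays only, 26 members were called above the array median ratio and 11 below, and Ndufb6 clone 2, Ndufs1, Sdhb and Atp5f1d lost their calls. The relation of complex IV with the array median, recomputed after quantile normalization once the data had been seen, had r = 0.70 (permutation p adjusted 0.0732), and over pair differences r = 0.89 (exact permutation p adjusted 0.0833). Causes of these changes were not tested.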
